A study of Mus musculus with 22 samples.

Results

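F13a1, Ly86, Csf1r, Lyz2, Axl, Tyrobp, Fcer1g and Clec12a are 8 genes known for their use in monocytes and macrophages. They were chosen as all probes whose gene symbol is one of these names, which gave 12 probes for 8 of the 19057 genes that a probe names alone. Of the 12 probes, 9 were detected (detection p under 0.05, a signal above the array's negative control beads) on at least 4 arrays, and every one of the 8 genes kept a probe among the 11118 genes tested. Expression was measured on 22 Illumina bead arrays of total RNA from marrow cells that were sorted out of C57BL/6 mice aged 8 weeks. All 5 populations came from GATA1-GFP transgenic animals, so the controls carried the reporter of the transcription factor GATA1 too. CMP (common myeloid progenitors), LMPP (lymphoid-primed multipotent progenitors), GATA1-LSK and GATA1+LSK (LSK cells, a compartment of stem and early progenitor cells, without and with the reporter) were measured on 4 arrays apiece. LT-HSC, the stem cells with long-term potential, were measured on 6. Whether replicates are separate mice or pools is not in the labels, so p-values reflect only how far these arrays spread, and that spread may be technical.

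Monocytes and macrophages arise from myeloid progenitors under the transcription factors PU.1 and IRF8, and they depend on CSF1 receptor signalling for survival and growth. Tyrobp (DAP12) and Fcer1g (the Fc receptor gamma chain) are membrane adaptors whose ITAM motifs carry signals from many activating receptors to the kinase Syk. Ly86 (MD-1) is the secreted partner of the LPS-related receptor RP105, Axl is a TAM receptor tyrosine kinase that binds Gas6, Clec12a is an inhibitory C-type lectin receptor, Lyz2 is lysozyme of macrophages and neutrophils, and F13a1 is the catalytic subunit of the transglutaminase factor XIII.

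The arrays lay on 4 slides, and slide and population were partly aligned. LMPP shared no slide with LT-HSC, nor CMP with GATA1-LSK. Mean array signals before normalisation were 123 to 208 on slide 3 and 311 to 462 on slide 2, and 12264 to 19015 probes were detected per array. Arrays of LT-HSC stood apart by slide. S100a8, a calcium-binding protein gene of neutrophils, was undetected on LT-HSC replicates 1 and 2 (slide 2), at 6.26 on replicate 3, and at 10.14, 10.41 and 11.32 on replicates 4 to 6 (all slide 3, log2 signal). The summed linear signal of 10 mature neutrophil markers was 275 to 459 on LT-HSC replicates 1 to 3, 2999 to 4440 on replicates 4 to 6, and at most 761 on the arrays of the other populations. Comparisons of the 8 genes, the named partners and the lists against LT-HSC were therefore also computed without the LT-HSC arrays of slide 3 and without replicates 4 to 6. Of the sort genes, Kit, the stem cell factor receptor, was detected on all 22 arrays, while Flt3, a receptor that marks LMPP, was near background, detected on 3 of 4 LMPP arrays, 1 each of CMP and GATA1-LSK and 2 each of GATA1+LSK and LT-HSC. Slamf1, a stem cell marker, was detected on all 4 GATA1+LSK arrays (5.88 ± 0.54, SD) and on 3 of 6 LT-HSC arrays, with 6.75 and 6.77 on replicates 1 and 2 and no detection on replicates 3, 4 and 6 of slide 3.

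Of the 8 genes, 6 differed among the 5 populations: F13a1, Ly86, Csf1r, Tyrobp and Fcer1g were highest in CMP, and Axl was lowest there (moderated F test of limma, adjusted over all genes, threshold 0.05; 23.2% of all genes tested passed). The adjusted p was 2.61e-13 for F13a1, 8.65e-08 for Axl, 7.85e-07 for Ly86, 9.12e-06 for Tyrobp, 0.000308 for Csf1r and 0.0282 for Fcer1g. Lyz2 (0.484) and Clec12a (0.161) did not pass. In bulk RNA, a larger share of expressing cells and more RNA per cell cannot be told apart.

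**Figure D1:**
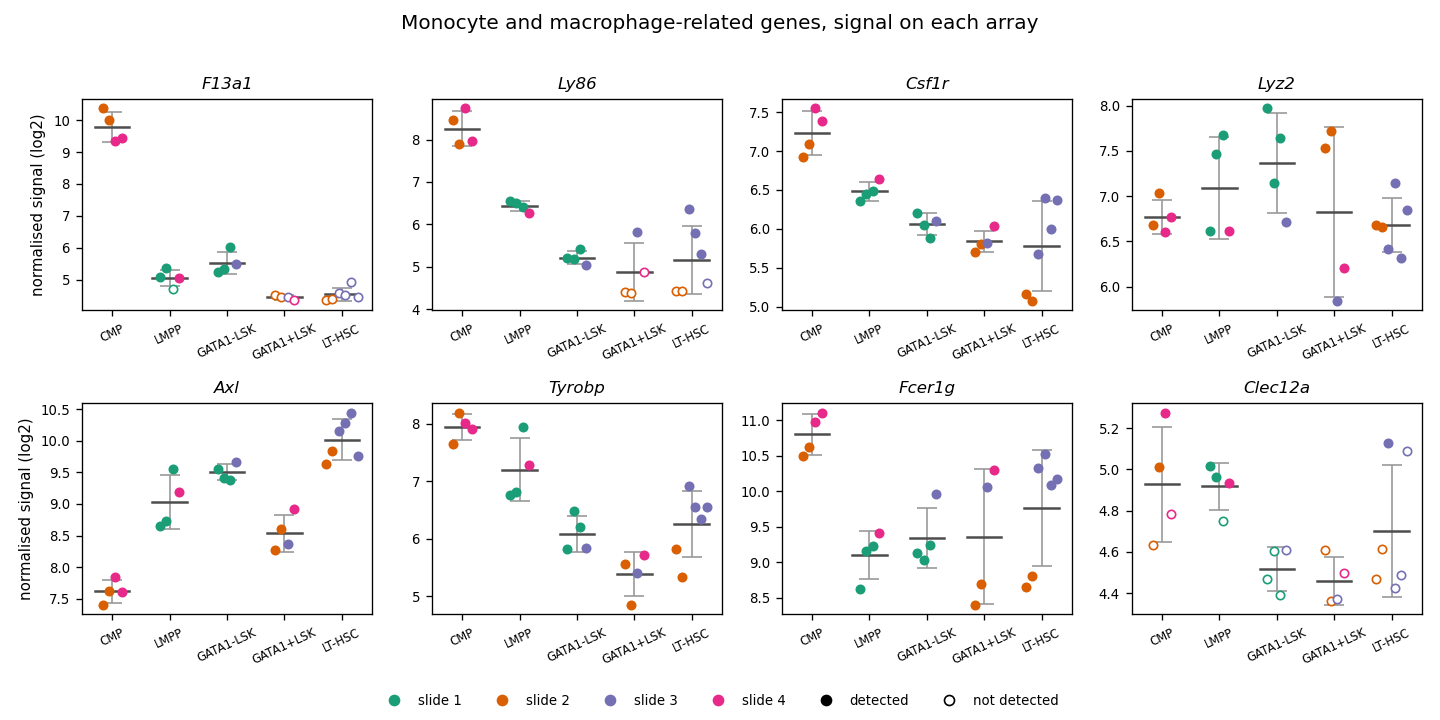
Normalised log2 signal of the 8 genes (vertical axis, a scale of its own in each panel) on each array of the 5 populations (horizontal axis). Points are arrays coloured by slide and open where undetected, dashes are means and bars are SD; F13a1, Ly86, Csf1r, Tyrobp and Fcer1g sit highest in CMP, Axl lowest in CMP, and Fcer1g splits by slide in GATA1+LSK and LT-HSC.

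Against LMPP, 4 of the 8 genes differed in CMP, where 5.91% of all genes did. Against GATA1-LSK 6 differed (7.74% of all genes), against GATA1+LSK 6 (6.46%) and against LT-HSC 5 (21.6%). In each of these comparisons Axl was the 1 lower gene and the others called were higher, and all 4 share the same CMP arrays. Of all genes, 2.31% were higher and 3.6% lower in CMP against LMPP, and 2.52% and 5.23% against GATA1-LSK. Against GATA1+LSK 3% were higher and 3.45% lower, and against LT-HSC 10.3% and 11.4%. The median difference of the 8 genes was 0.75 against LMPP, 1.31 against GATA1-LSK, 1.42 against GATA1+LSK and 1.25 against LT-HSC, while the median of all genes lay between -0.01 and 0.06. The other populations gave these counts. LMPP differed from LT-HSC in 4 genes, 3 higher and Axl lower (16.4% of all genes, 8.35% higher and 8.02% lower). It was higher than GATA1+LSK in 2 (8.59% of all genes, 4.87% higher and 3.72% lower) and higher than GATA1-LSK in 1 (3.53%, 1.39% higher and 2.14% lower). GATA1-LSK was higher than GATA1+LSK in 2 genes (2.8% of all genes, 1.68% higher and 1.12% lower) and higher than LT-HSC in 1 (5.56%, 2.71% higher and 2.85% lower). GATA1+LSK was lower than LT-HSC in 1, Axl (10.5%, 4.21% higher and 6.33% lower).

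**Figure D2:**
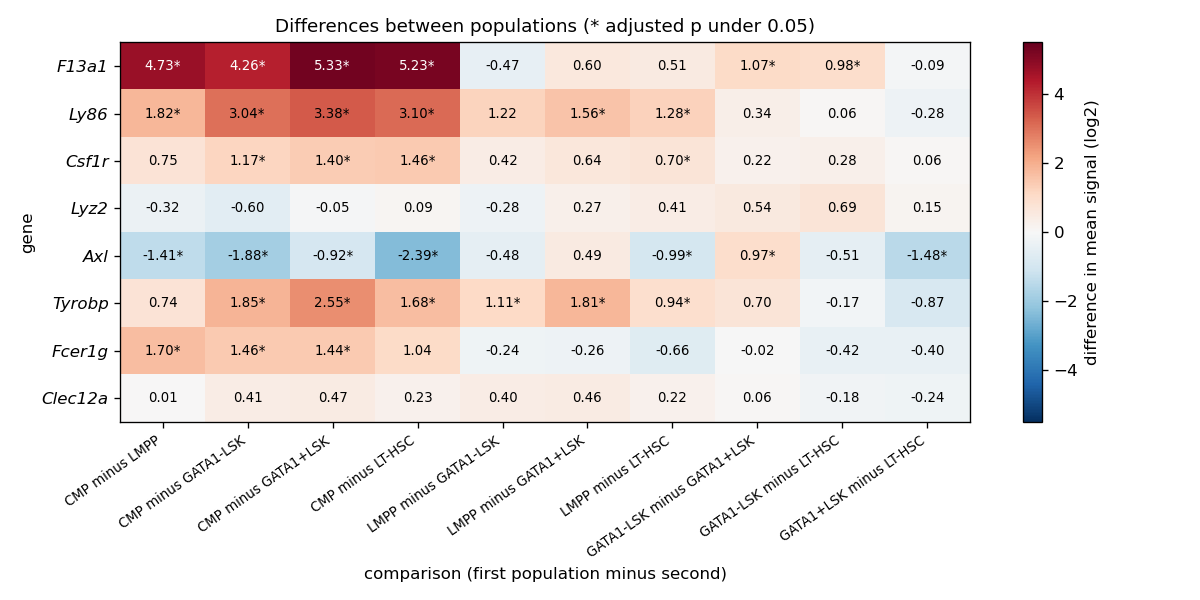
Difference in mean log2 signal of each gene (rows) in each of the 10 comparisons (columns, first population minus second), with a star where the adjusted p was under 0.05. The stars crowd into the 4 CMP columns, with F13a1 between 4.26 and 5.33 there, and Axl is the row with negative values in all 4.

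Csf1r, the receptor for the growth factors CSF1 and IL-34, was detected on all 22 arrays. Its signal was 6.93, 7.09, 7.55 and 7.38 in CMP, 6.35, 6.44, 6.49 and 6.65 in LMPP, and 6.21, 6.05, 5.88 and 6.10 in GATA1-LSK (replicates 1 to 4 in order). It was 5.70, 5.80, 5.82 and 6.03 in GATA1+LSK, and 5.08 to 6.40 with a median of 5.84 in LT-HSC. Every CMP array lay above every other array. CMP exceeded GATA1-LSK by 1.17 ± 0.25 (SE of the fit; adjusted p = 0.00361), GATA1+LSK by 1.40 ± 0.25 (0.000807) and LT-HSC by 1.46 ± 0.23 (5.81e-05). The difference from LMPP, 0.75 ± 0.25, had adjusted p = 0.0873 and passed with the replicate number as a block (0.0278). It also passed with slide as a fixed (0.0433) or random block (0.0302) and with only those populations in the fit (0.0357).

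LMPP exceeded LT-HSC in Csf1r by 0.70 ± 0.23 (adjusted p = 0.039), with overlapping arrays. LT-HSC replicates 1 and 2 were at 5.16 and 5.08, and replicates 3 to 6 on slide 3 at 5.68 to 6.40. Without the LT-HSC arrays of slide 3 the difference was 1.36 (8.22e-05), and GATA1-LSK and GATA1+LSK then also exceeded LT-HSC, by 0.94 (0.00586) and 0.72 (0.0231). The LMPP call was lost with slide as a fixed (0.131) or random block (0.0545), median scaling (0.059) and only those populations in the fit (0.131). It was also lost when any of the 4 LMPP arrays or LT-HSC replicates 1, 2 or 3 was left out (at most 0.0965, without LMPP replicate 4). A second Csf1r probe was detected on 1 array only.

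Of 15 genes of the CSF1 receptor axis, 11 were tested and 3 differed among populations, a share near the 23.2% of all genes. Both ligands, Csf1 and Il34, were detected on no array. Dok2, an adaptor that dampens tyrosine kinase signals, was lowest in CMP, the population with the highest Csf1r mean. CMP arrays averaged 8.60 ± 0.67 and LMPP arrays 10.54 ± 0.23 (SD, n = 4 each), a difference of -1.94 ± 0.33 (adjusted p = 0.000624). CMP was also lower than GATA1-LSK (-1.30 ± 0.33, 0.016), GATA1+LSK (-1.58 ± 0.33, 0.00396) and LT-HSC (-1.35 ± 0.31, 0.00235), the last lost without the LT-HSC arrays of slide 3 (-0.65, 0.226). Outside CMP the order of the populations was not opposite, since LMPP had the highest Dok2 mean and the second Csf1r mean. No gene of the list was called higher in CMP than in another population.

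Ly86 was highest in CMP, with LMPP next in the order of means. It measured 8.45, 7.89, 8.73 and 7.96 in CMP and 6.55, 6.49, 6.42 and 6.27 in LMPP. It was at 5.05 to 5.43 in GATA1-LSK, undetected on 3 GATA1+LSK arrays with 5.83 on replicate 3, and detected on 3 of 6 LT-HSC arrays (4.42 to 6.35, median 4.96). The CMP arrays overlapped with none of the others. CMP exceeded LMPP by 1.82 ± 0.37 (adjusted p = 0.00281), GATA1-LSK by 3.04 ± 0.37 (8.06e-06), GATA1+LSK by 3.38 ± 0.37 (1.99e-06) and LT-HSC by 3.10 ± 0.34 (4.55e-07).

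LMPP exceeded GATA1+LSK in Ly86 by 1.56 ± 0.37 (adjusted p = 0.00751) and LT-HSC by 1.28 ± 0.34 (0.0105), and both calls were lost with a fixed slide term (0.0917 and 0.0591) and with median scaling (0.074 and 0.0513). LMPP lay above GATA1-LSK by 1.22 ± 0.37 without overlap (0.0771), a difference that passed with a fixed slide term (1.39, 0.0038). It also passed with slide as a random block (0.00721), the replicate block (0.0213) and only those populations in the fit (0.000868). All 3 arrays of LT-HSC with Ly86 detected were on slide 3, and without the slide 3 arrays LMPP exceeded LT-HSC by 2.01 (0.000244).

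Cd180 encodes RP105, the receptor that Ly86 accompanies, and it did not share the Ly86 profile. Its mean was 6.43 ± 0.25 in CMP, 6.53 ± 0.21 in LMPP and 6.20 ± 0.51 in GATA1+LSK (SD, n = 4 each), against 4.90 ± 0.45 in GATA1-LSK (SD, n = 4) and 4.88 ± 0.42 in LT-HSC (SD, n = 6). In GATA1+LSK it exceeded GATA1-LSK by 1.30 ± 0.27 (adjusted p = 0.00937), whereas Ly86 was undetected on 3 of those 4 arrays. Of 10 genes of LPS and RP105 recognition, 9 were tested and 6 differed among populations, where 23.2% of all genes tested did. GATA1+LSK against LT-HSC held most calls, 1 higher (Cd180) and 5 lower, beside 4.21% and 6.33% of all genes. Without the LT-HSC arrays of slide 3, 3 were lower, and without replicates 4 to 6, which carry the neutrophil transcripts, 4. Ly96 (MD-2, the partner of TLR4) was at -1.58 ± 0.30 (0.000817) and Tlr6 at -2.26 ± 0.48 (0.00271), and neither passed without the slide 3 arrays (-0.86, 0.0974 and -1.36, 0.0772).

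Axl alone had its lowest mean in CMP, but its order was not a full reversal. GATA1+LSK was next lowest for Axl and had the lowest mean for Ly86 and Tyrobp. Axl was at 7.41, 7.62, 7.85 and 7.61 in CMP, 8.27, 8.60, 8.36 and 8.92 in GATA1+LSK, and 8.64, 8.73, 9.56 and 9.18 in LMPP. It was at 9.56, 9.42, 9.38 and 9.66 in GATA1-LSK, and 9.64 to 10.44 with a median of 9.99 in LT-HSC. Every CMP array lay below every other array. CMP differed from LT-HSC by -2.39 ± 0.20 (adjusted p = 1.25e-08), from GATA1-LSK by -1.88 ± 0.22 (5.28e-06), from LMPP by -1.41 ± 0.22 (0.000205) and from GATA1+LSK by -0.92 ± 0.22 (0.0115).

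Within the LSK compartment Axl was 0.97 ± 0.22 higher in GATA1-LSK than in GATA1+LSK (adjusted p = 0.0164). This call was lost with a fixed slide term (0.0822), with median scaling (0.0655), and without GATA1-LSK replicate 1 (0.052) or GATA1+LSK replicate 3 (0.0564). GATA1+LSK differed from LT-HSC by -1.48 ± 0.20 (2.11e-05). Among the arrays of slide 2 that difference was -1.30, and on slide 3 it was -1.80. LMPP was also below LT-HSC, at -0.99 ± 0.20 (0.0013), and at -0.71 without the LT-HSC arrays of slide 3 (0.0598). A second Axl probe was detected on no array.

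Gas6, the ligand that binds all TAM receptors, was also low in CMP but set LMPP apart from the Axl order. It averaged 7.86 ± 0.27 in LMPP (SD, n = 4) and 7.74 ± 0.42 in LT-HSC (SD, n = 6), 6.61 ± 0.29 in GATA1-LSK, and 4.89 ± 0.15 in CMP and 4.90 ± 0.48 in GATA1+LSK (SD, n = 4 each). CMP differed from LMPP in Gas6 by -2.97 ± 0.25 (adjusted p = 4.89e-08), and GATA1-LSK exceeded GATA1+LSK by 1.72 ± 0.25 (0.000342). Pros1, protein S and the other TAM ligand, was lowest in LMPP at 5.12 ± 0.28 (SD, n = 4) and highest in LT-HSC at 7.40 ± 0.43 (SD, n = 6), a difference of -2.27 ± 0.26 (1.15e-06). Of the other TAM receptors, Tyro3 was detected on no array and Mertk on 6, with no difference called among populations (0.716). Socs3, a feedback inhibitor of cytokine signals that TAM receptors induce, was lower in CMP at 6.84 ± 0.28 than in LMPP at 9.72 ± 1.22 (SD, n = 4 each), by -2.89 ± 0.59 (0.00293).

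Clec12a stayed near background. It was detected on 6 of 22 arrays, CMP replicates 2 and 3 (5.01 and 5.28), LMPP replicates 1, 2 and 4 (5.02, 4.97 and 4.94) and LT-HSC replicate 3 (5.13). It was undetected on all 8 arrays of GATA1-LSK and GATA1+LSK. No comparison passed, and the largest difference was 0.47 ± 0.19 for CMP against GATA1+LSK (adjusted p = 0.17). The signal of this probe is too close to background to show a smaller difference. Clec9a, a related C-type lectin known from dendritic cells, was detected on all 4 CMP arrays (6.42 ± 0.61, SD), 2 LMPP and 3 LT-HSC arrays. It was undetected on every GATA1-LSK and GATA1+LSK array, and CMP lay at least 2.76-fold above GATA1-LSK in it (adjusted p = 2.11e-05).

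Tyrobp stood high in CMP and in LMPP. Its signal was 7.65, 8.19, 8.01 and 7.90 in CMP and 6.76, 6.81, 7.94 and 7.28 in LMPP. It was 5.82, 6.49, 6.20 and 5.85 in GATA1-LSK, 5.57, 4.85, 5.41 and 5.72 in GATA1+LSK, and 5.34 to 6.92 with a median of 6.44 in LT-HSC. CMP overlapped with LMPP through LMPP replicate 3 alone, and with no array of the other populations. CMP exceeded GATA1+LSK by 2.55 ± 0.31 (adjusted p = 8.02e-06), GATA1-LSK by 1.85 ± 0.31 (0.000319) and LT-HSC by 1.68 ± 0.28 (0.000117), and lay 0.74 ± 0.31 above LMPP (0.21).

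LMPP exceeded GATA1+LSK in Tyrobp by 1.81 ± 0.31 (adjusted p = 0.000305), LT-HSC by 0.94 ± 0.28 (0.0241) and GATA1-LSK by 1.11 ± 0.31 (0.0465). The call against LT-HSC was lost with slide as a fixed (0.251) or random block (0.0884) and with only those populations in the fit (0.0854). It was also lost when LMPP replicate 3 (0.13), LMPP replicate 4 (0.0573) or LT-HSC replicate 2 (0.0505) was left out. The call against GATA1-LSK was lost when any of 13 of the 22 arrays was left out, at most 0.214 without LMPP replicate 3. It was also lost with median scaling (0.128), the authors' values (0.0565), no detection filter (0.0768) and linear-scale quantile normalisation (0.0502). LT-HSC replicates 1 and 2 were at 5.83 and 5.34 and replicates 3 to 6 at 6.34 to 6.92.

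Fcer1g had the highest level in CMP but varied as much by slide. It was 10.50, 10.63, 10.97 and 11.11 in CMP, 8.63, 9.16, 9.23 and 9.41 in LMPP, and 9.13, 9.04, 9.25 and 9.96 in GATA1-LSK. In GATA1+LSK it was 8.40 and 8.69 on slide 2, 10.06 on slide 3 and 10.30 on slide 4, and in LT-HSC 8.65 and 8.81 on slide 2 and 10.09 to 10.53 on slide 3. The GATA1+LSK and LT-HSC arrays thus fell into a low pair on slide 2 and a high set elsewhere. Population accounted for 50.2% of its variance and slide for 49.3%, shares that overlap.

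CMP exceeded LMPP in Fcer1g by 1.70 ± 0.43 (adjusted p = 0.0174), GATA1-LSK by 1.46 ± 0.43 (0.0382) and GATA1+LSK by 1.44 ± 0.43 (0.046), and lay 1.04 ± 0.39 above LT-HSC (0.0621). Among the arrays of slide 2 CMP exceeded GATA1+LSK by 2.02, and on slide 4 by 0.74. A fixed slide term let all 4 pass, CMP against LT-HSC at 1.49 (8.31e-05), and the replicate block gave 0.0024 for that comparison. Single arrays decided 3 of the calls: that against LMPP was lost without LMPP replicate 1 (0.0688) or CMP replicate 4 (0.0603), that against GATA1-LSK without any of 7 arrays (up to 0.117) and that against GATA1+LSK without any of 14 (up to 0.146). The call against GATA1+LSK was also lost when only those populations entered the fit (0.105). With no detection filter the calls against GATA1-LSK (0.0728) and GATA1+LSK (0.0905) and the F test (0.0596) were lost. The F test was also lost without LMPP replicate 1 (0.0528) or any of CMP replicates 2 to 4 (0.0603 to 0.0966). Without the LT-HSC arrays of slide 3 CMP exceeded LT-HSC by 2.07 (0.00188), and without replicates 4 to 6 by 1.54 (0.0183).

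The Fc receptor gamma chain also serves mast cells and basophils. The summed linear signal of 7 mast cell and basophil markers was 9310 to 13257 on CMP arrays, 768 to 1257 on LMPP arrays, 5072 to 7084 in GATA1-LSK, 9360 to 13148 in GATA1+LSK and 4123 to 8635 in LT-HSC. Fcer1a, the alpha chain of the IgE receptor, was at 7.42 ± 0.36 in CMP and 8.58 ± 0.48 in GATA1+LSK (SD, n = 4 each) and undetected in LMPP. These markers were thus at like sums in CMP and GATA1+LSK, and their part in the Fcer1g differences was not tested.

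Of 26 partners and kinases of the ITAM adaptors, 16 were tested and 9 differed among populations, where 23.2% of all genes tested did. Syk was detected on no array. In CMP 4 were called higher than in LMPP (2.31% of all genes), 2 than in GATA1-LSK (2.52%) and 4 than in GATA1+LSK (3%). None was lower there, where 3.6%, 5.23% and 3.45% of all genes were. Against LT-HSC 6 were higher and 1 lower, beside 10.3% and 11.4% of all genes. Without the LT-HSC arrays of slide 3, 7 were higher and none lower. The list median for CMP was 0.46 against GATA1+LSK, 0.34 against LT-HSC, 0.08 against GATA1-LSK and -0.11 against LMPP. The median of all genes was 0.02, 0.06, -0.01 and -0.01 in that order. Clec7a (Dectin-1, a receptor for fungal glucans) was at 5.83 ± 0.47 in CMP (SD, n = 4) and at least 1.81-fold higher than in GATA1+LSK (adjusted p = 0.00121). Trem1, a receptor that signals through Tyrobp, was at 6.14 ± 0.46 in CMP (SD, n = 4), at least 2.25-fold above GATA1+LSK (0.00713). Clec4e (Mincle, which pairs with Fcer1g) was high in both CMP (6.26 ± 0.66) and GATA1-LSK (6.58 ± 0.37, SD, n = 4 each), and GATA1-LSK exceeded GATA1+LSK in it by 1.67 ± 0.31 (0.00328). Lat2, also of this list, averaged 12.61 in CMP and 12.73 in LMPP, a difference that did not pass (0.936). CMP exceeded LT-HSC in Lat2 by 1.60 ± 0.29 (0.000245), and LMPP exceeded LT-HSC by 1.72 ± 0.29 (0.000153).

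**Figure D3:**
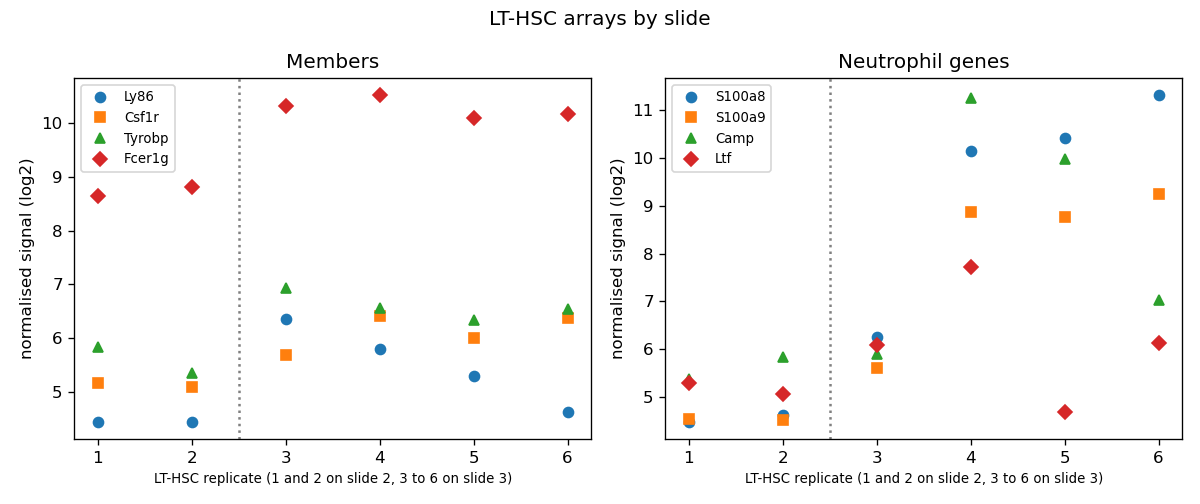
Log2 signal on the 6 LT-HSC arrays (horizontal axis, replicate number) of Ly86, Csf1r, Tyrobp and Fcer1g on the left and of the neutrophil genes S100a8, S100a9, Camp and Ltf on the right, with a dotted line between slides 2 and 3. Fcer1g is at 8.65 and 8.81 on slide 2 and at 10.09 to 10.53 on slide 3, and S100a8 is at 10.14 to 11.32 on replicates 4 to 6.

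In LT-HSC, Tyrobp and Fcer1g were higher on every array of slide 3 than on those of slide 2. Csf1r was 5.68 on replicate 3, between slide 2 (5.08 and 5.16) and replicates 4 to 6 (5.99 to 6.40). Ly86 was 6.35, 5.80 and 5.30 on replicates 3 to 5 and undetected on replicate 6 (4.62). On replicate 3 S100a8 was 6.26 and S100a9 5.62. The part of the neutrophil transcripts in these values was not tested. Of the 10 neutrophil markers, 4 were detected on some CMP array, 6 in LMPP, 5 in GATA1-LSK and 7 each in GATA1+LSK and LT-HSC. S100a8 was undetected on every array of CMP, LMPP and GATA1-LSK, whereas Camp, a granule peptide gene, was detected on 2, 3 and 4 of those arrays and Ltf, lactoferrin, on 1, 4 and 3.

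Of 13 macrophage markers, 9 were detected on some array of CMP, 10 in LMPP, 8 each in GATA1-LSK and GATA1+LSK and 5 in LT-HSC. Their summed signal was 378 to 444 in CMP, 478 to 609 in LMPP, 372 to 566 in GATA1-LSK, 340 to 748 in GATA1+LSK and 319 to 737 in LT-HSC. Of the 9 tested, none was called higher in CMP than elsewhere, and 2 were lower in CMP than in LMPP (3.6% of all genes). LMPP was called higher in 2 than GATA1+LSK and in 3 than LT-HSC (2 without the LT-HSC arrays of slide 3). The shares of all genes higher in LMPP were 4.87% and 8.35% in these comparisons. C1qb, a complement subunit gene of macrophages, averaged 6.95 ± 0.47 in LMPP and 5.22 ± 0.28 in CMP (SD, n = 4 each), and Cd5l and Siglec1 were detected on no array. Adgre1, in contrast to C1qb, was detected in CMP and on no array of the other populations. The list median for LMPP was 0.31 against GATA1-LSK and 0.46 against LT-HSC, but -0.06 against GATA1+LSK. The part of these transcripts in the LMPP values of Ly86, Csf1r and Tyrobp was not tested.

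F13a1 had the largest difference of the 8 genes. It was at 10.37, 9.99, 9.34 and 9.44 in CMP, 5.10, 5.36, 4.71 and 5.05 in LMPP (undetected on replicate 3), and 5.25, 5.33, 6.01 and 5.51 in GATA1-LSK. It was undetected on all 4 GATA1+LSK arrays (4.36 to 4.54) and all 6 LT-HSC arrays (4.37 to 4.93). The CMP arrays were far above all others. CMP exceeded LMPP by 4.73 ± 0.22 (adjusted p = 7.97e-12) and GATA1-LSK by 4.26 ± 0.22 (5.67e-11), and was at least 28.0-fold above GATA1+LSK (6.86e-13) and at least 26.5-fold above LT-HSC (8.37e-14). Where a population had no detected array, the fold is the bound set by the lowest detected signal on its arrays.

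A low F13a1 signal also set GATA1-LSK apart from the other LSK fraction and from LT-HSC. All 4 GATA1-LSK arrays were detected, at least 1.47-fold above GATA1+LSK (difference 1.07 ± 0.22, adjusted p = 0.00819) and at least 1.39-fold above LT-HSC (0.98 ± 0.20, 0.0056). The call against GATA1+LSK was lost with a fixed slide term (0.0516) and with median scaling (0.337), and that against LT-HSC with median scaling (0.178). The difference of LMPP from GATA1-LSK, its neighbour in the order, was -0.47 and did not pass (adjusted p = 0.46).

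Platelets and their precursors also hold factor XIII A. The summed signal of 6 megakaryocyte and platelet markers was 3243 to 5833 in CMP, 429 to 661 in LMPP and 3844 to 4357 in GATA1-LSK. It was 10415 to 19213 in GATA1+LSK and 1968 to 3801 in LT-HSC, and F13a1 was undetected on all arrays of both. The part of platelet transcripts in the F13a1 values was not tested. Tgm2, tissue transglutaminase and an enzyme relative of F13a1, was low in both CMP and LMPP. It averaged 6.58 ± 0.45 in CMP and 6.08 ± 0.72 in LMPP, against 10.54 ± 0.69 in GATA1-LSK and 10.54 ± 0.82 in GATA1+LSK (SD, n = 4 each) and 11.26 ± 0.89 in LT-HSC (SD, n = 6). CMP differed from GATA1-LSK in Tgm2 by -3.96 ± 0.49 (adjusted p = 9.96e-06). F13b, the carrier subunit of factor XIII, was detected on 4 arrays and showed no called difference (0.927).

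Promoter windows of 250 bases before to 50 after each annotated start (RefSeq, GRCm38.p6) were available for 6 of the 8 genes, F13a1 with a pair of starts, and were searched on both strands. Tyrobp and Csf1r had no window used here. The PU.1-type motif GAGGAAGT was found in 3.2% of 32851 windows of all genes, the shorter ETS core AGGAAGT, which it contains, in 9.35%, and the C/EBP-type motif TTNNGCAA in 10.8%. F13a1 and Ly86, the members with the largest differences of CMP from LT-HSC, and Axl, which was lowest there, are shown over 150 bases before to 25 after the start, with motif matches in capitals. The F13a1 window is chr13:37049189-37049363 on the minus strand, that of Ly86 chr13:37345195-37345369 on the plus strand and that of Axl chr7:25788709-25788883 on the minus strand.
F13a1: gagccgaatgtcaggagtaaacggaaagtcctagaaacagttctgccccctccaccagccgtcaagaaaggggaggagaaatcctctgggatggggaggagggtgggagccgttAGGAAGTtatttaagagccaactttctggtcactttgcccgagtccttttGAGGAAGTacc
Ly86: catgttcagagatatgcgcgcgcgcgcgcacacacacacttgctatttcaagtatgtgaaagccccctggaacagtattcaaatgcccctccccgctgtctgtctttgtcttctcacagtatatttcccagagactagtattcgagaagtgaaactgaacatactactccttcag
Axl: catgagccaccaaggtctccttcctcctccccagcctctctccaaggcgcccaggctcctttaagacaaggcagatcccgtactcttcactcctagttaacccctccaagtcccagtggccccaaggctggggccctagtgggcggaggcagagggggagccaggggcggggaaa
This F13a1 start had a GAGGAAGT beginning 14 bases past the first transcribed base and an AGGAAGT at position -36 relative to that base. Its other annotated start, Ly86, Axl and Fcer1g had no match to any of the 3 motifs in the 300 bases searched. Lyz2 had the ETS core on the opposite strand at position -100, and Clec12a a C/EBP-type match at -140 that reads on both strands. A match is a description of the letters and not of a bound site.

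Lyz2 did not follow the other genes. Its brightest probe was at 6.68, 7.04, 6.60 and 6.76 in CMP, 6.61, 7.47, 7.68 and 6.61 in LMPP, and 7.97, 7.15, 7.65 and 6.71 in GATA1-LSK. It was at 7.53, 7.72, 5.85 and 6.21 in GATA1+LSK, and 6.32 to 7.15 with a median of 6.67 in LT-HSC. The arrays of all populations overlapped, and the largest difference, 0.69 ± 0.33 for GATA1-LSK against LT-HSC, did not pass (adjusted p = 0.256). Slide accounted for 46.4% of its variance and population for 21.6%, beside medians of 35.3% and 30% over all genes.

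The second detected Lyz2 probe differed from the first in how it varied between slides. In GATA1+LSK it was at 5.64 and 6.00 on slide 2, where the first was at 7.53 and 7.72, and at 7.39 and 7.22 on slides 3 and 4, where the first was at 5.85 and 6.21. In CMP it was at 5.90 and 5.67 on slide 2 and 7.10 and 7.43 on slide 4. It showed no called difference among populations either (adjusted p = 0.994), and the remaining probe was detected on no array. Lyz1, a near-identical paralogue with which Lyz2 probes may share signal, was detected on all 22 arrays and lay between 11.21 and 12.74 with no called difference (0.937). Without the LT-HSC arrays of slide 3, Lyz1 was lower than LT-HSC in CMP (-0.98, 0.0157), LMPP (-0.85, 0.0417) and GATA1+LSK (-0.96, 0.0294). Without replicates 4 to 6 none of these passed (0.116, 0.234 and 0.191).

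Other genes of monocyte commitment were called higher in CMP. Of 30 listed, 19 were tested and 10 differed among populations, where 23.2% of all genes tested did. In CMP 5 were higher than in LMPP (2.31% of all genes), 7 than in GATA1-LSK (2.52%) and 9 than in GATA1+LSK (3%). None was lower there, where 3.6%, 5.23% and 3.45% of all genes were. Against LT-HSC 9 were higher and 1 lower, beside 10.3% and 11.4% of all genes. The list was chosen with earlier results of these arrays known. Its median for CMP was 0.32 against LMPP, 0.76 against GATA1-LSK, 0.96 against GATA1+LSK and 0.86 against LT-HSC. The median of all genes was -0.01, -0.01, 0.02 and 0.06 in that order. Irf8, the transcription factor of monocyte and dendritic cell progenitors, fell in the order 7.86 ± 0.65 in CMP, 6.60 ± 0.22 in LMPP and 4.98 ± 0.11 in GATA1-LSK (SD, n = 4 each), with 5.29 ± 0.40 in LT-HSC (SD, n = 6), and was undetected in GATA1+LSK. CMP exceeded LMPP in Irf8 by 1.26 ± 0.26 (adjusted p = 0.00353), and LMPP exceeded GATA1-LSK by 1.62 ± 0.26 (0.000352). LT-HSC was at least 1.24-fold above GATA1+LSK (0.0231), a call lost without its slide 3 arrays (0.251) or without replicates 4 to 6 (0.0718).

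Ccr2, the chemokine receptor by which monocytes leave the marrow, was detected on the 4 CMP arrays alone (5.21 to 6.09), and was at least 1.77-fold above LMPP (adjusted p = 8.88e-05). It passed the filter of at least 4 detected arrays through CMP alone, so a call higher in CMP was favoured in advance. The counts of the list for CMP include it. Cx3cr1, the fractalkine receptor, was at 7.30 ± 0.59 in CMP and 5.86 ± 0.59 in LMPP (SD, n = 4 each). It was undetected on every GATA1-LSK and GATA1+LSK array and detected on 1 of 6 LT-HSC arrays. LMPP was at least 1.87-fold above GATA1-LSK in Cx3cr1 (0.00118). Mpeg1, the pore-forming protein perforin-2, was likewise higher in LMPP than in GATA1-LSK, by 1.67 ± 0.28 (0.000604). Spi1, which encodes PU.1, was at 6.50 ± 0.53 in CMP and 6.18 ± 0.57 in LMPP (SD, n = 4 each), and CMP exceeded GATA1+LSK by 1.72 ± 0.30 (0.000606) and LT-HSC by 1.36 ± 0.27 (0.000843), while its difference from GATA1-LSK, 0.76 ± 0.30, did not pass (0.143).

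**Figure D4:**
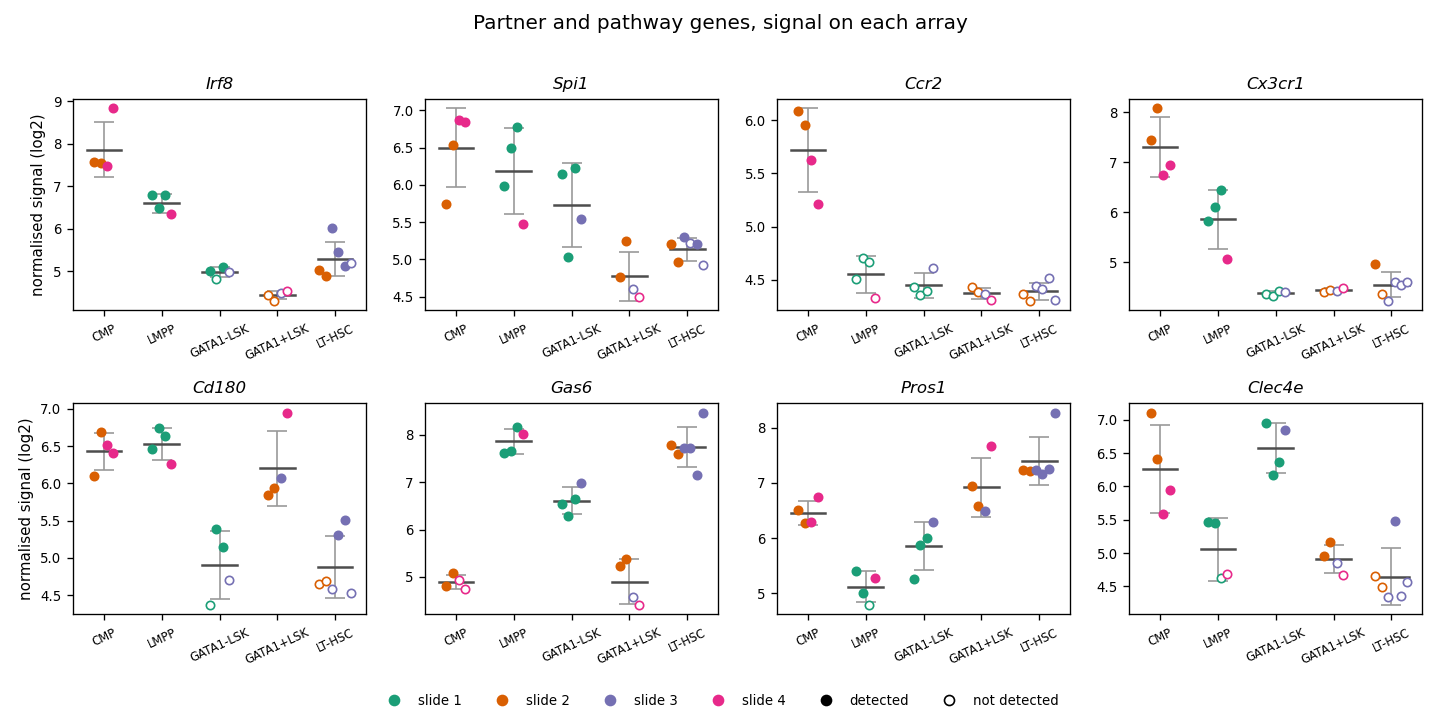
Normalised log2 signal (vertical axis) of 8 partner and pathway genes on each array of the 5 populations, drawn like the plot of the members. Irf8, Cx3cr1 and Ccr2 are highest in CMP, Gas6 is highest in LMPP and LT-HSC, and Cd180 is lowest in GATA1-LSK and LT-HSC.

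Over the 22 arrays, 17 of the 28 pairs of the 8 genes correlated positively and 13 above 0.5, up to r = 0.87 for Ly86 and Tyrobp. Axl correlated negatively with F13a1 (r = -0.74). After the population means were subtracted, 6 pairs were above 0.5, with Csf1r and Fcer1g at 0.72, and Axl was positive with Fcer1g (0.57) and Tyrobp (0.52). These arrays share slides, so the values within populations also hold slide differences. The gene most like F13a1 was Ccr2 (Pearson r = 0.95 over 22 arrays), which passed the detection filter through CMP arrays alone. That most like Ly86 was Nrp1 (0.93), that most like Csf1r was Cst7 (0.90) and that most like Axl was Tmem53 (0.95). Tyrobp was most like Dtx4 and Irf8 (0.91 each), Fcer1g most like Lgals1 (0.92), Lyz2 most like Pik3r2 (0.86) and Clec12a most like Prr5 (0.75). The mean profile of the 8 genes, each scaled, was most like Slc2a6 (0.90), Pi16 (0.89), Ccl9 (0.88), Irf8 (0.88), Nrp1 (0.87), Tmem229b (0.87), Rab7b (0.87) and Cacna1d (0.86).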

How the data were processed

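Total RNA was amplified to biotin-labelled cRNA and hybridised to bead arrays, per the labels. The deposited non-normalised values are linear intensity values with negative values among them, and each has a deposited detection p-value against the array's negative control beads. A second deposited table holds intensity values on a linear scale that the authors had normalised between arrays, and it was used as an alternative. BeadStudio is named in the submitters' processing notes, and its version and background step are not given in the sources used here.

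Intensities were background corrected from the detection p-values (nec, offset 16), taken to log2 and quantile normalised with limma 3.58.1 in R 4.3.3. Of 45281 probes, 34885 named 1 gene, 18 several and 10378 none (GEO's platform annotation), and 16575 of the first kind were detected (p under 0.05) on at least 4 arrays. The brightest probe stood for each of 11118 genes. Group means were fitted to all 22 arrays (17 residual degrees of freedom), and 10 comparisons were tested two-sided with lmFit and eBayes of limma, Benjamini-Hochberg adjusted over all genes of a comparison. Precision is limited by the number of arrays.

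The 8 genes, the gene lists and the rule for naming genes (the members, the 4 listed genes of each pathway with the lowest F test p, direct partners, and the genes most alike) were chosen with earlier results of these data known. S100a8, S100a9, Camp, Ltf, Kit, Flt3, Slamf1, Fcer1a and the named macrophage markers were singled out with their values known. Alternatives were other normalisations, detection filters, the mean of probes, a slide term, fixed or random (the latter through statmod 1.5.0), a block for the replicate number, a fit of the compared populations alone, and each array left out. Quantile normalisation on the linear scale, and leaving out LT-HSC arrays of slide 3 or replicates 4 to 6, were chosen after seeing the data. Same-numbered arrays correlated above 0.1 in every pair for CMP with LMPP (r across genes 0.333 to 0.48), GATA1+LSK (0.194 to 0.591) and LT-HSC (0.182 to 0.584), LMPP with LT-HSC (0.117 to 0.49) and GATA1+LSK with LT-HSC (0.247 to 0.648). They were read as pairs there, though the labels name no pairing and the reported fit used none. Of 4 pairs each, 1, 3, 2, 0 and 3 in that order lay on a shared slide, so the correlation may also hold slide differences. The fit was tested on simulated data.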

Additional observations from a re-analysis of the deposited data

How the results depend on the processing

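Differences of the 8 genes were followed only where the unadjusted p of the reported fit was under 0.05, which gave 49. That selection made a turn of sign unlikely, and none of the 49 turned under any alternative with a test. Of the 49, 32 were called as reported. Differences not followed could turn, such as Ly86 for GATA1-LSK against GATA1+LSK (0.34 as reported, -0.28 with slide fixed). The counts of the 8 genes moved as follows. For LMPP against GATA1-LSK (1 as reported) it was 0 with median scaling, the authors' values, no detection filter and linear-scale quantile normalisation, and 2 with slide as a fixed or random block, the replicate block and only the populations compared. For LMPP against GATA1+LSK (2) it was 1 with median scaling and slide as a fixed block. For LMPP against LT-HSC (4) it was 2 with median scaling, slide as a random block and only the populations compared, and 1 with slide fixed. For GATA1-LSK against GATA1+LSK (2) it was 0 with median scaling and slide fixed, and 1 with only the populations compared. For GATA1-LSK against LT-HSC (1) it was 0 with median scaling, and 2 without LT-HSC replicates 4 to 6 or its slide 3 arrays. For GATA1+LSK against LT-HSC (1) it was 2 with the authors' values, detection p under 0.01, the mean of probes, linear-scale normalisation and without the slide 3 arrays. Counts for CMP moved less, but calls in them changed. With slide fixed, Csf1r against LMPP (0.0433) and Fcer1g against LT-HSC (8.31e-05) were gained. With no detection filter, Fcer1g against GATA1-LSK (0.0728) and GATA1+LSK (0.0905) was lost. F13a1 for LMPP against GATA1+LSK was gained with the authors' values (0.0222). The replicate block changed these calls of the 8 genes: Ly86 for LMPP against GATA1-LSK (adjusted p = 0.0213), Csf1r for CMP against LMPP (0.0278) and LMPP against GATA1+LSK (0.0497), and Fcer1g for CMP against LT-HSC (0.0024), all gained. The cause was not tested.

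Counts over all genes moved by over 1.5 times in these cases. For CMP against GATA1-LSK, 861 became 1292 with the replicate block. For CMP against GATA1+LSK, 718 became 1445 with slide fixed, 1310 with slide random, 1118 with the replicate block and 476 with only the populations compared. For LMPP against GATA1-LSK, 393 became 691, 643, 596 and 659 in that order. For LMPP against LT-HSC, 1820 became 1159 with slide fixed. For GATA1-LSK against GATA1+LSK, 311 became 183 with median scaling, 581 with the replicate block and 165 with only the populations compared. For GATA1-LSK against LT-HSC, 618 became 252 with slide fixed, 357 with slide random, 314 with only the populations compared and 1087 without the slide 3 LT-HSC arrays. For GATA1+LSK against LT-HSC, 1172 became 658 with only the populations compared.

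Leaving out 1 array at a time, the 8 genes gave 0 to 2 calls for LMPP against GATA1-LSK, 2 to 4 for LMPP against LT-HSC, 1 to 2 for GATA1-LSK against GATA1+LSK and 1 to 2 for GATA1+LSK against LT-HSC. For CMP they gave 3 to 4 against LMPP and 5 to 6 against each other population. All genes gave 178 to 372 for GATA1-LSK against GATA1+LSK and 298 to 701 for GATA1-LSK against LT-HSC. Same-numbered arrays of the other 5 comparisons did not meet the pairing rule. Median scaling moved the median of all genes by -0.13 for CMP against GATA1+LSK, from 0.02 to -0.11. Signals near background limit Clec12a, F13a1 outside CMP and Ly86 in GATA1+LSK and LT-HSC.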
